A study of Mus musculus with 6 samples.

Results

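The transcription factors that set up hair cell identity in the cochlea, and those that keep hair cells mature and alive, were followed in RNA of cochlear sensory epithelium, in Kir2.1-OE mice and in littermates without the transgene. The set held 10 genes chosen by symbol, Atoh1, Pou4f3, Gfi1, Tbx2, Barhl1, Lhx3, Isl1, Rfx1, Rfx2 and Rfx3, of 24411 gene symbols counted. All 10 had enough reads to enter the test, as did 15303 genes in all. Kir2.1-OE mice were Otof rtTA+/-; Kir2.1+/-, so that DOX (doxycycline) switched on the inward rectifier potassium channel Kir2.1 under the Otof promoter, which in the cochlea is active in hair cells and mainly in inner hair cells. The controls were Otof rtTA+/-; Kir2.1+/+ and drank water with the same DOX, 0.5 mg/ml. Both lines were kept on a C57BL/6N background and tissue was taken at postnatal day 9, before the onset of hearing. Each group had 3 libraries, and each library was 1 pool of 8 cochleae from 4 mice. The comparison asks which genes differ when inner hair cells are held at a more negative membrane potential and lose their intrinsic calcium action potentials.

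Hair cell fate is set in steps. ATOH1, a basic helix-loop-helix activator, starts the hair cell programme in the embryo and is then silenced, whereas POU4F3, GFI1 and BARHL1 act in cells that have already become hair cells and are needed for their survival. TBX2 is required for cells to become and remain inner rather than outer hair cells, the LIM homeodomain factors LHX3 and ISL1 mark hair cells and sensory precursors, and the RFX factors bind promoters of ciliary and hair cell genes.

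In bulk tissue, fewer cells of a type and less RNA per cell cannot be told apart. The libraries held between 35430940 and 41205047 assigned reads. The transgene check gave 2213 to 3813 normalized counts of Kcnj2, which encodes Kir2.1, in Kir2.1-OE and 226 to 236 in control. Hair cell markers were abundant in every library: 5 inner hair cell markers summed to 13327 to 15981 normalized counts in Kir2.1-OE and 11150 to 12543 in control, and 6 outer hair cell markers to 33308 to 40612 and 36992 to 44736. The pools also held other cochlear tissue. Spiral ganglion neuron markers summed to 22351 to 57873 normalized counts in Kir2.1-OE against 10638 to 17693 in control, with 7 of 10 called higher, and glia markers to 354433 to 465219 against 257396 to 327365, with 2 of 6 called higher. Cartilage markers summed to 523744 to 657466 against 257714 to 314269, with 2 of 3 tested called higher. Supporting cell markers summed to 222517 to 244610 against 255347 to 268879, a sum led by Epyc, while 1 of the 9, Otog, was called higher and 0 lower. Control replicate 1 stood apart for blood: erythroid markers summed to 31114 there against 7177 to 12976 in the other libraries. Here and below, normalized counts are the deposited read estimates brought to one library size, and called means an adjusted p under 0.05 by edgeR's quasi-likelihood test together with a fold change above 1.5. By that rule 15.5% of all tested genes were called higher and 5.08% lower.

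Of the 10 factors, 1 was called higher in Kir2.1-OE, Rfx2, and 1 was called lower, Atoh1. Over all tested genes 15.5% were called higher and 5.08% lower, so the shares among the factors, 1 of 10 each way, were close to the background. By adjusted p alone 4 factors were higher (Tbx2, Rfx1, Rfx2 and Rfx3) and 1 was lower (Atoh1), beside 27.3% and 23.5% of all tested genes. The same 5 were those whose 3 Kir2.1-OE libraries did not overlap the 3 controls, 4 above and 1 below, where 31.7% of all tested genes lay wholly above and 29.9% wholly below. The median log2 fold change of the 10 factors was 0.06, beside 0.01 over all tested genes. An exact two-sided permutation test of 3 against 3 cannot go below p = 0.1, and each of these 5 genes gave that value.

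**Figure D1:**
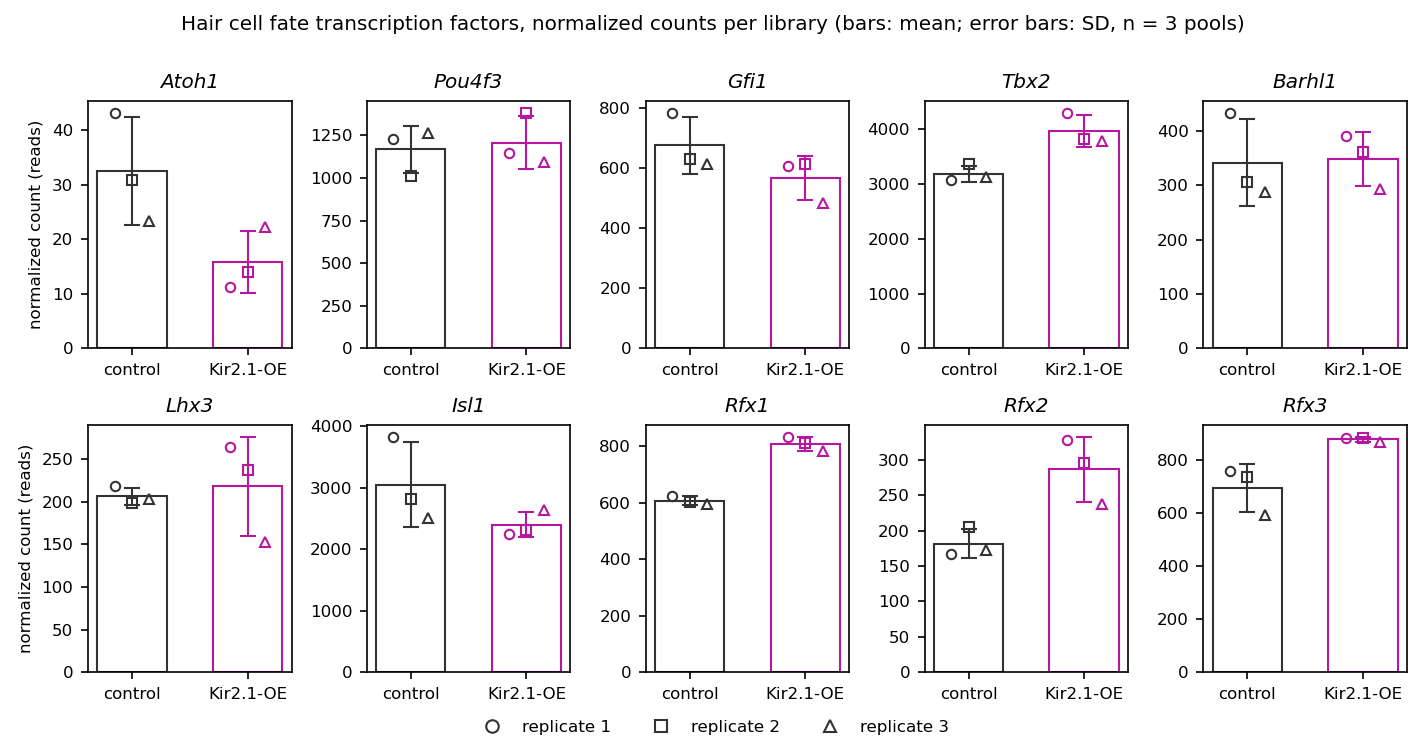
Normalized count (reads, y axis) of each factor in control (black) and Kir2.1-OE (magenta), with a symbol for each library, bars at the mean and error bars of 1 SD over 3 pools. Atoh1 lies at or below 43.1 in every library, Tbx2, Rfx1, Rfx2 and Rfx3 are higher in each Kir2.1-OE library than in any control, and the groups overlap for Pou4f3, Gfi1, Barhl1, Lhx3 and Isl1.

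For the 2 called genes, the RefSeq sequence just before the start of transcription is shown, in the mm10 (GRCm38) build and read 5′ to 3′ on the gene's own strand, because these are the promoters that belong to the calls. Capitals mark a match to the RFX half-site GTTGCC. Windows of 8 of the 10 factors, all but Pou4f3 and Tbx2, were searched on both strands. The motifs were an E-box (CAGNTG), the RFX half-site (GTTGCC), a T-box half-site (AGGTGT) and a GFI1 core (AAATCA).
Atoh1, chr6:64728875-64729124, + strand: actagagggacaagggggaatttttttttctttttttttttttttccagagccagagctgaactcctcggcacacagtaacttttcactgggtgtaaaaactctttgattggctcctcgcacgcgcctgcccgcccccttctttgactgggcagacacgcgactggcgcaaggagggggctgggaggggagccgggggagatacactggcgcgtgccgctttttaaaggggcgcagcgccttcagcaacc
Rfx2, chr17:56831014-56831258, - strand: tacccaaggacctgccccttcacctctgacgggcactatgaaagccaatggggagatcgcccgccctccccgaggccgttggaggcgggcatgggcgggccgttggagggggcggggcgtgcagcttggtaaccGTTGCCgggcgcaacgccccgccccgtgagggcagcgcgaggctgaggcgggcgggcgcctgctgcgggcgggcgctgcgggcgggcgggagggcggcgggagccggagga

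The Atoh1 window held none of the 4 motifs. The Rfx2 window held 1 RFX half-site, and Rfx2 was the only one of the 8 factors searched whose sequence contained it. Pou4f3 and Tbx2 were not searched. Of 32851 RefSeq windows of 250 bases, 10.4% held the RFX half-site, 44.8% the E-box, 11.8% the T-box half-site and 12.4% the GFI1 core. Such a match is a description of letters and says nothing about binding.

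Atoh1, at chr6:64729125-64731245 on the + strand with a single transcript of 2121 nt, was the least abundant factor. Its normalized counts, in the order of replicates 1, 2 and 3 as for all genes below, were 11.3, 14.0 and 22.2 in Kir2.1-OE and 43.1, 30.9 and 23.4 in control. Every Kir2.1-OE library was below every control, but the nearest pair, Kir2.1-OE replicate 3 and control replicate 3, nearly met. The means were 15.8 ± 5.69 and 32.5 ± 9.96 (SD, n = 3), a log2 fold change of -1.03 (SE 0.378), and the gene fell with an adjusted p of 0.0447 (edgeR, Benjamini-Hochberg over all tested genes). In reads, this was 11, 14 and 21 against 43, 34 and 23, and the exact 95% Poisson interval of Kir2.1-OE replicate 3, 13.0 to 32.1, contained the count of control replicate 3. These intervals cover counting error only. The call was lost without control replicate 1 (log2 fold change -0.78, adjusted p = 0.162), control replicate 2 (-1.07, adjusted p = 0.0840), Kir2.1-OE replicate 1 (-0.86, adjusted p = 0.145) or Kir2.1-OE replicate 2 (-0.98, adjusted p = 0.115) in edgeR. Control replicate 1, the highest for Atoh1, was also the highest for the 4 erythroid markers (2 called lower in Kir2.1-OE) and the 7 granulocyte precursor markers (2 called lower, summing to 555 there and 121 to 284 in the other libraries). The shared hair cell markers (46437 normalized counts) and the supporting cell markers (268879) also summed highest there. Inner hair cell (11150), glia (257396) and cartilage (257714) markers summed lowest there. The part of these differences in the Atoh1 value was not tested.

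POU4F3, a POU homeodomain factor that acts downstream of ATOH1, is needed for hair cell survival and is mutated in a dominant deafness. Pou4f3 had 1148, 1382 and 1093 normalized counts in Kir2.1-OE and 1231, 1009 and 1264 in control. The groups overlapped, with the highest and the lowest of the 6 values in the replicates numbered 2. The log2 fold change was 0.05, with a 95% interval of -0.21 to 0.31 (edgeR, adjusted p = 0.750), and it turned to -0.085 without Kir2.1-OE replicate 2 and to -0.047 without control replicate 2. The genes with the most similar profile over the 6 libraries, of 13644 candidates, were Tmc1, BC037032 and Man2c1, with root mean square differences of 0.0487, 0.0496 and 0.0524 on the log2 scale. Tmc1 encodes the pore-forming subunit of the mechanotransduction channel of hair cells.

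GFI1 is a zinc finger repressor that silences neuronal genes in hair cells. Gfi1, at chr5:107716657-107726036 on the - strand, had 606, 613 and 482 normalized counts in Kir2.1-OE and 783, 629 and 612 in control. The groups overlapped by a narrow margin, Kir2.1-OE replicate 2 being just above control replicate 3. The log2 fold change was -0.25 (95% interval -0.55 to 0.05) with adjusted p = 0.140 in edgeR. The interval stayed within 1.5-fold on both sides. BARHL1, a homeodomain factor, maintains hair cells after they have formed. Barhl1, at chr2:28907679-28916668 on the - strand, had 390, 362 and 294 normalized counts in Kir2.1-OE and 433, 305 and 287 in control. Its log2 fold change was 0.03 (95% interval -0.37 to 0.43) and it changed sign without Kir2.1-OE replicate 1 (-0.070), Kir2.1-OE replicate 2 (-0.023), control replicate 2 (-0.047) or control replicate 3 (-0.081).

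TBX2 is a T-box repressor that separates inner from outer hair cells. Tbx2, at chr11:85832551-85841948 on the + strand, had 4291, 3814 and 3780 normalized counts in Kir2.1-OE and 3067, 3351 and 3118 in control. All Kir2.1-OE libraries were above all controls. The means were 3962 ± 286 and 3179 ± 151 (SD, n = 3), a ratio of 1.25 and a log2 fold change of 0.32 (SE 0.0759). The adjusted p was 0.00694 by edgeR's quasi-likelihood test, but the fold was under 1.5, so the gene was not called. Its closest profiles were those of Tfcp2, Dlgap4 and Eif2ak1, with root mean square differences of 0.0180, 0.0212 and 0.0247 on the log2 scale. Beside it, the inner hair cell marker Otof rose by a log2 fold change of 0.76 and Slc17a8, which encodes the vesicular glutamate transporter of inner hair cells, had 0.09 (adjusted p = 0.00174 and 0.535 in edgeR). The other listed inner hair cell markers went both ways. Slc7a14 had 1.36, Atp2a3 0.20 and Fgf8 -0.32 (adjusted p = 0.000258, 0.159 and 0.173 in edgeR). With the length and GC offsets described below, Otof had -0.023 (adjusted p = 0.879) and was not called, while Slc7a14 had 0.76 and was.

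LHX3 and ISL1 are LIM homeodomain factors that share the cofactors LDB1 and LDB2. Lhx3, at chr2:26200212-26208289 on the - strand, had 264, 237 and 152 normalized counts in Kir2.1-OE and 218, 198 and 203 in control. Kir2.1-OE replicate 3 was the lowest of the 6 and the other Kir2.1-OE libraries were the highest, so the 3 controls lay within the Kir2.1-OE range. Among the Kir2.1-OE libraries, replicate 3 was also the lowest for Kcnj2 (2213) and for summed inner (13327) and outer hair cell markers (33308). Its summed shared hair cell markers (41013) lay between those of the other Kir2.1-OE libraries. The part of these differences in the Lhx3 value was not tested. The log2 fold change was 0.08 (95% interval -0.37 to 0.53, edgeR adjusted p = 0.761), and it turned to -0.091 without Kir2.1-OE replicate 1 and to -0.0105 without Kir2.1-OE replicate 2. The coefficient of variation was 26.7% in Kir2.1-OE and 4.99% in control. Isl1, at chr13:116298281-116309689 on the - strand, had 2246, 2317 and 2639 normalized counts in Kir2.1-OE and 3827, 2809 and 2508 in control. Control replicate 1 was well above the other 5 libraries, and Kir2.1-OE replicate 3 exceeded control replicate 3. The log2 fold change was -0.34 (95% interval -0.66 to -0.02), with adjusted p = 0.0691 in edgeR, and it was -0.15 (adjusted p = 0.238) without control replicate 1. Without control replicate 3 it was -0.47 (adjusted p = 0.0206), and without Kir2.1-OE replicate 3 it was -0.43 (adjusted p = 0.0457), both still under 1.5-fold. Isl1 is also made by spiral ganglion neurons, whose markers were higher in Kir2.1-OE as given above, and their part in this value was not tested.

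The RFX factors share a winged helix DNA-binding domain. All 3 members, Rfx1, Rfx2 and Rfx3, were above every control in every Kir2.1-OE library, as were 31.7% of all tested genes. Of the 3, 1 passed 1.5-fold, where 15.5% of all tested genes were called higher. Rfx2, at chr17:56775897-56831013 on the - strand, had 327, 295 and 237 normalized counts in Kir2.1-OE and 168, 204 and 173 in control. The means were 286 ± 45.8 and 182 ± 19.9 (SD, n = 3). It rose 1.58-fold, a log2 fold change of 0.66 (SE 0.161, 95% interval 0.29 to 1.02), with adjusted p = 0.00797 by edgeR's quasi-likelihood test. The fold was close to the threshold, and the call was lost without Kir2.1-OE replicate 1 (log2 fold change 0.54, adjusted p = 0.0435) because the fold went under 1.5.

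Rfx1, at chr8:84066834-84096992 on the + strand, had the tightest replicates of the factors with separate groups: 832, 811 and 783 normalized counts in Kir2.1-OE and 625, 603 and 594 in control. The log2 fold change was 0.41 (SE 0.0810) with adjusted p = 0.00258 in edgeR, at a ratio of 1.33. Rfx3, at chr19:27761721-28011166 on the - strand, had 884, 884 and 867 normalized counts in Kir2.1-OE and 759, 735 and 593 in control. Its spread lay almost wholly in the controls, with a coefficient of variation of 12.9% against 1.09%. The log2 fold change was 0.34 (SE 0.104), with adjusted p = 0.0229 in edgeR, at a ratio of 1.26. Leaving out Kir2.1-OE replicate 1 (adjusted p = 0.0703), Kir2.1-OE replicate 2 (0.0709) or control replicate 3 (0.0702) took Rfx3 past 0.05 in edgeR. The profiles most like that of Rfx3 were those of Rrp12, Shpk and Pcdhga2, at root mean square differences of 0.0305, 0.0339 and 0.0489 on the log2 scale. RFX1 to RFX3 act in ciliated cells too. None of 4 tested multiciliated cell markers was called in this fit. Ccdc39 came closest, at 0.88 (adjusted p = 0.0533 in edgeR), with groups that did not overlap, while Rsph1 had -0.23 (adjusted p = 0.429). With the length and GC offsets described below Ccdc39 was called higher, at 1.05 (adjusted p = 0.0458 in edgeR). The summed markers ran from 336 to 383 normalized counts in Kir2.1-OE and from 275 to 342 in control. Their part in the RFX values was not tested.

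Fold changes went with transcript length in these libraries (Spearman's rho 0.557 across 15198 tested genes, which share the 6 libraries and are no replicates). The median log2 fold change was -0.51 over 656 tested genes whose longest annotated transcript is up to 1000 nt, 0.01 over 3045 genes of 3001 to 4000 nt, and 0.81 over 886 genes above 8000 nt. Among the factors, Atoh1 (2121 nt), Lhx3 (2223 nt), Pou4f3 (2360 nt), Isl1 (2516 nt) and Gfi1 (2860 nt) are short, Tbx2 (3626 nt) and Barhl1 (3666 nt) lie in the middle, and Rfx2 (4141 nt), Rfx1 (4172 nt) and Rfx3 (9146 nt) are the longest. The 3 longest were among the 4 that were higher by adjusted p, and the factor with the lowest fold change was the shortest. The order was not strict: the short Lhx3 and Pou4f3 had log2 fold changes of 0.08 and 0.05. Rfx3, the longest, had 0.34, below the median of its length class. The cause of the trend was not tested.

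**Figure D2:**
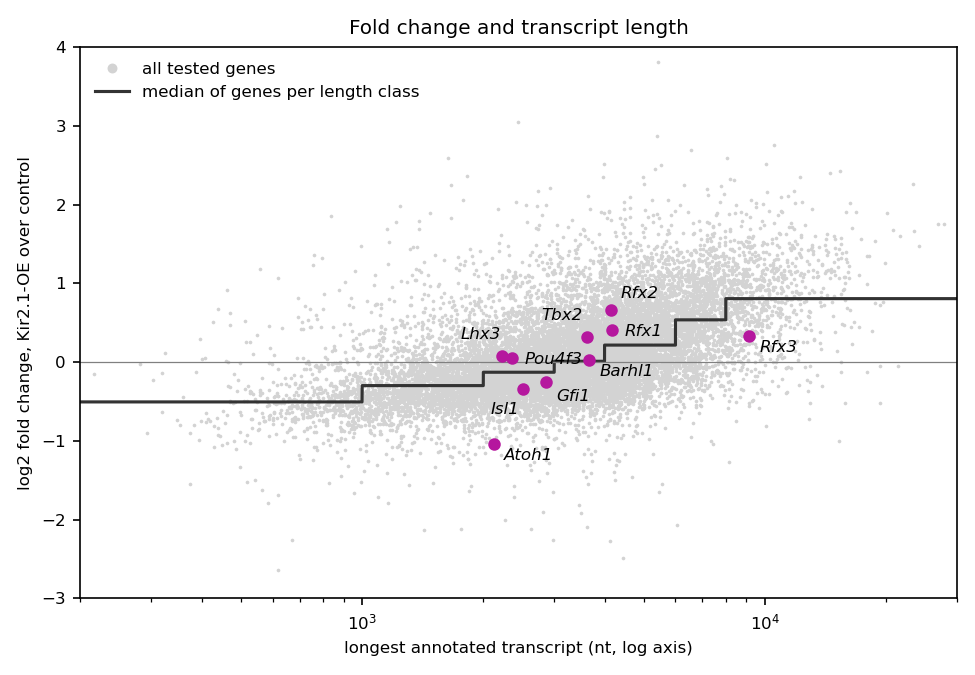
Log2 fold change of Kir2.1-OE over control (y axis) against the longest annotated transcript in nt (x axis, log scale) for all tested genes (grey), with the median per length class as a line and the 10 factors in magenta. The line climbs from -0.51 to 0.81, Rfx2 lies above it, and Rfx3 and Atoh1 lie below it.

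A fit with offsets that take out a smooth trend on length and GC content in each library gave no call among the 10 factors, while 6.87% of all tested genes were then called higher and 2.96% lower. With these offsets Rfx2 had a log2 fold change of 0.39 (SE 0.146, adjusted p = 0.0671) and Atoh1 had -0.88 (SE 0.378, adjusted p = 0.101) in edgeR. Both kept their direction. Tbx2 (-0.12), Rfx1 (-0.06) and Rfx3 (-0.05) turned from above to below 0, with adjusted p between 0.153 and 0.692. Barhl1 turned to -0.35 (adjusted p = 0.152) and Gfi1 went to -0.37 (adjusted p = 0.0520), while Pou4f3 (0.14), Lhx3 (0.04) and Isl1 (-0.13) kept their signs, with adjusted p between 0.349 and 0.890 in edgeR. The offsets also remove any true difference that goes with length or GC content.

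**Figure D3:**
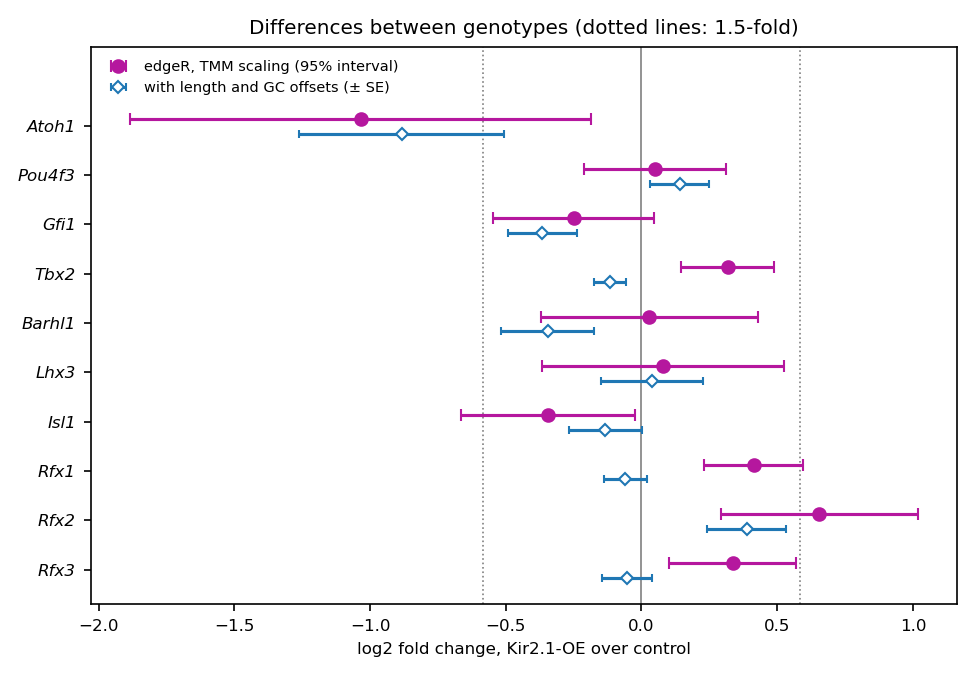
Log2 fold change of Kir2.1-OE over control (x axis) for each factor from edgeR, with the 95% interval (magenta circles), and from the fit with length and GC offsets, with the SE (blue diamonds); dotted lines mark 1.5-fold. Only Rfx2 and Atoh1 pass a dotted line in the first fit, and Tbx2, Barhl1, Rfx1 and Rfx3 move to the left of 0 with the offsets.

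Levels were compared between genes only per length, in reads per kilobase of the longest transcript at a common library size (RPKM). In control the order was Isl1 (32.3 ± 7.32, SD, n = 3), Tbx2 (23.4 ± 1.11), Pou4f3 (13.2 ± 1.57), Gfi1 (6.28 ± 0.876), Rfx1 (3.88 ± 0.101), Barhl1 (2.48 ± 0.580), Lhx3 (2.47 ± 0.123), Rfx3 (2.03 ± 0.261), Rfx2 (1.17 ± 0.128) and Atoh1 (0.408 ± 0.125). Barhl1 and Lhx3 did not differ beyond their spread, and the libraries of every other pair of neighbours did not overlap. In Kir2.1-OE, Tbx2 (mean 29.1, libraries 27.8 to 31.5) stood before Isl1 (25.4, libraries 23.8 to 27.9), and their libraries overlapped. Gfi1 and Rfx1 overlapped there too, as did Lhx3, Rfx3 and Barhl1 (2.61, 2.56 and 2.53), and Rfx2 (1.84 ± 0.295) and Atoh1 (0.199 ± 0.0715) were again the lowest. With the median instead of the longest transcript, the control level of Isl1 came to 67.8 and that of Rfx3 to 6.91, which put Rfx3 in place 4 in place of 8.

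**Figure D4:**
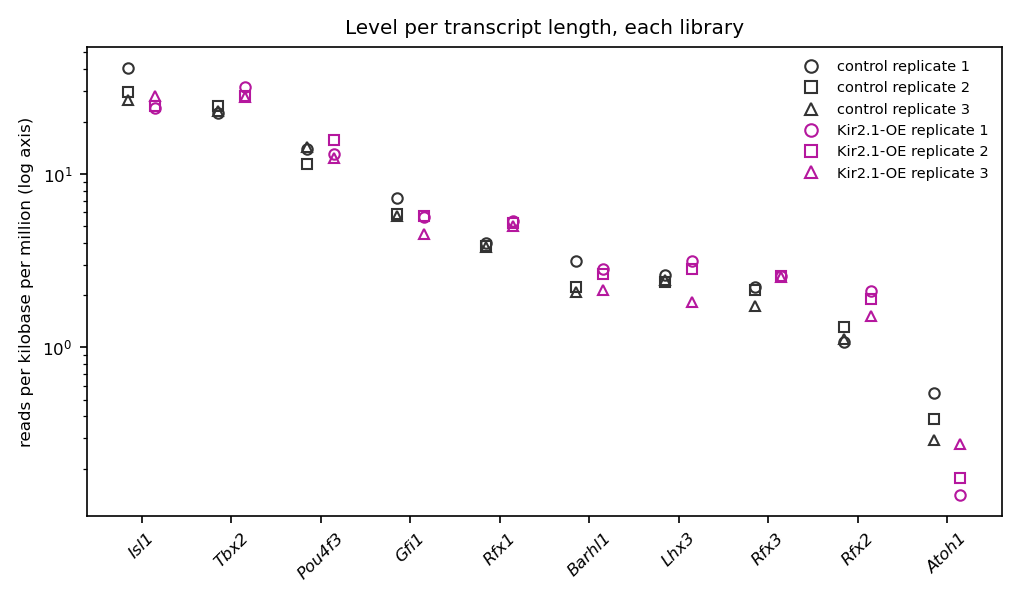
Level of each factor in reads per kilobase of the longest transcript, scaled to a common library size (y axis, log scale) in each control (black) and Kir2.1-OE (magenta) library, ordered by the control mean. The control means fall from 32.3 for Isl1 to 0.408 for Atoh1, and the groups are apart for Tbx2, Rfx1, Rfx2, Rfx3 and Atoh1.

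Of 7 listed RFX relatives and partners, 5 were tested, 2 were called higher and 0 lower, beside 15.5% and 5.08% of all tested genes. Rfx7 rose by a log2 fold change of 0.63 (1416, 1405 and 1315 normalized counts in Kir2.1-OE against 806 to 946 in control; adjusted p = 0.000441 in edgeR). Rfx4, a low gene, had 88.3, 62.0 and 48.7 normalized counts against 11.0, 39.1 and 37.7, and rose by 1.17 (adjusted p = 0.0443). Rfxank, a subunit of the complex that RFX5 forms at MHC class II promoters, had 0.34 (adjusted p = 0.0109), and Rfx5 and Rfxap had 0.04 and 0.03 with overlapping groups (adjusted p = 0.760 and 0.830). In the fit with offsets 0 of the 5 were called, with 0.21 for Rfx7, 1.13 for Rfx4 and -0.15 for Rfx5. Rfx6 was at 0 in every library and Rfx8 was too low to test.

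ATOH1 binds E-boxes as a dimer with the E proteins TCF3, TCF4 and TCF12, and the ID proteins hold E proteins away from DNA. None of these 7 genes was called, since no fold passed 1.5, but all 7 had an adjusted p under 0.05 in edgeR and groups that did not overlap. Both traits were common: by adjusted p alone 27.3% of all tested genes were higher and 23.5% lower. Without overlap, 31.7% lay wholly above the controls and 29.9% wholly below. The 3 E protein genes were above the controls, with log2 fold changes of 0.23 for Tcf3, 0.50 for Tcf4 and 0.27 for Tcf12. The 4 Id genes were below, with -0.45 for Id1, -0.38 for Id2, -0.38 for Id3 and -0.21 for Id4. Id2 shows the separation: 15426, 15009.5 and 14903 normalized counts in Kir2.1-OE and 19699, 19319 and 19984 in control. With the offsets the values shrank to between -0.13 (Id4) and 0.13 (Tcf4), none with an adjusted p under 0.05; the lowest was 0.196.

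Cofactors of the LIM factors and of GFI1 gave 2 calls, 1 higher and 1 lower, beside 15.5% and 5.08% of all tested genes. Among 6 LIM domain cofactors Lmo3, a LIM-only protein that binds LDB1, fell by 0.77 on the log2 scale (351, 419.7 and 492 normalized counts in Kir2.1-OE against 818, 726 and 607 in control; adjusted p = 0.00237 in edgeR), and it kept its call with the offsets, at -0.65 (adjusted p = 0.00794). Lmo1 and Lmo4 had -0.45 and -0.35 with adjusted p of 0.00112 and 0.00311, both under 1.5-fold, and Ldb1 and Ldb2, the cofactors that LHX3 and ISL1 share, had 0.11 and -0.11 with overlapping groups. Among 5 corepressors of GFI1, Rcor1 rose by 0.62 (adjusted p = 0.00223) and had 0.26 with the offsets (adjusted p = 0.0743). Hdac1 and Hdac2, which encode histone deacetylases, had -0.39 and -0.27 (adjusted p = 0.00190 and 0.0201), under 1.5-fold, and Kdm1a, the histone demethylase partner of RCOR1, had 0.14 (adjusted p = 0.160).

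Of 8 other regulators of hair cells and the prosensory domain 3 were called higher and 0 lower, beside 15.5% and 5.08% of all tested genes. Prox1, a homeobox gene of supporting cells and their precursors, rose by 1.13 (686, 556 and 661 normalized counts against 354, 283 and 234; adjusted p = 0.000493 in edgeR) and was also called with the offsets, at 0.66 (adjusted p = 0.00900). Insm1, which keeps early outer hair cells from taking the inner hair cell fate, rose by 1.01 from a low level (89.3, 61.0 and 57.1 against 34.1, 25.4 and 43.8; adjusted p = 0.0181). Ikzf2, a regulator of outer hair cell maturation, rose by 0.60 (1001, 875 and 873 against 615, 610 and 586; adjusted p = 0.000655). With the offsets Insm1 had 0.71 and Ikzf2 0.21, and neither was called. Hes6, a target of ATOH1, had -0.43 (adjusted p = 0.00799), under 1.5-fold. Eya1 and Nr2f1 had 0.29 and 0.32 (adjusted p = 0.0107 and 0.0216 in edgeR), also under 1.5-fold, with every Kir2.1-OE library above every control. Their values with the offsets were 0.21 and 0.05. Gata3, which acts early in the sensory lineage, had 0.25 with overlapping groups.

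Of 9 paralogues of the factors 5 were tested and 2 were called higher, both close relatives of Pou4f3, where 15.5% of all tested genes were called higher. Pou4f1, which spiral ganglion neurons make, rose by 1.64 (124, 97.9 and 144 normalized counts in Kir2.1-OE against 27.1, 53.6 and 35.6 in control; adjusted p = 0.00139 in edgeR). Pou4f2 rose by 1.03 (85.2, 77.9 and 185 against 44.1, 80.0 and 45.8; adjusted p = 0.0455), although its groups overlapped. With the offsets Pou4f1 was still called, at 1.45 (adjusted p = 0.00551), and Pou4f2 was not, at 1.04 (adjusted p = 0.0614). Kir2.1-OE replicate 3, the highest library for both genes, was also the highest for the summed spiral ganglion neuron markers (57873), whose part in these values was not tested. Pou4f3 itself shares 0.47% of its 31-base words with other genes, so its reads are little mixed with those of its paralogues. Atoh7, Barhl2 and Lhx4 were at 0 in every library and Gfi1b had at most 3.63 normalized counts. The other tested paralogues, Atoh8, Tbx3 and Isl2, had log2 fold changes of 0.14, 0.35 and -0.02 and were not called.

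**Figure D5:**
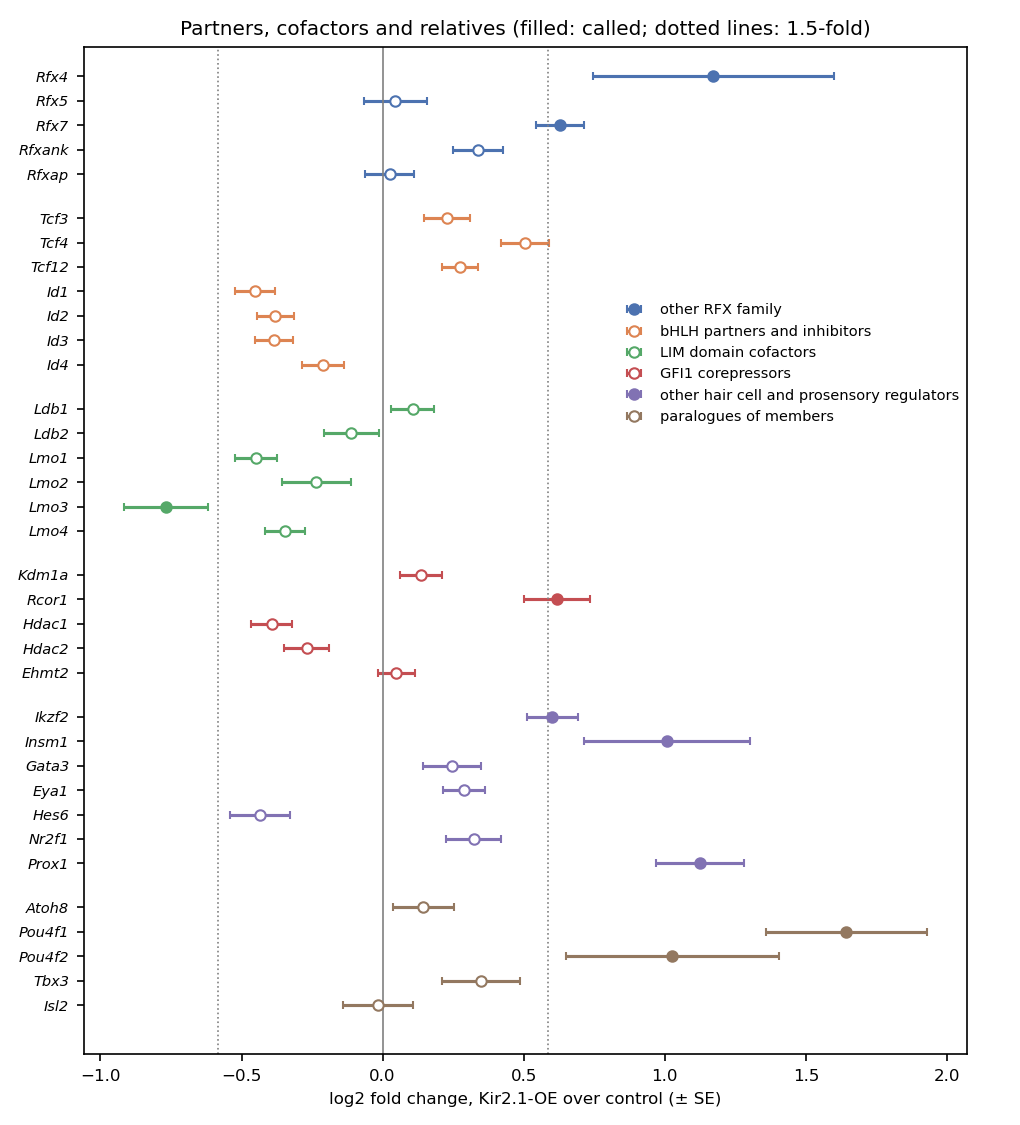
Log2 fold change (x axis, ± SE) of tested partners, cofactors and relatives, coloured by list, with filled points for called genes and dotted lines at 1.5-fold. Pou4f1 (1.64), Rfx4 (1.17) and Prox1 (1.13) lie farthest to the right, Lmo3 (-0.77) is the only filled point to the left, and the E protein and Id genes lie on opposite sides of 0.

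The hair cell markers beside these factors moved both ways. Of 13 shared hair cell markers 2 were called higher and 2 lower, where 15.5% and 5.08% of all tested genes were. The same shares of all genes stand beside the outer and inner hair cell counts that follow. The myosin gene Myo7a rose by 1.17 and Loxhd1, a stereociliary protein gene, by 1.44, while Calb1 and Grxcr1 fell by 0.74 and 0.82 on the log2 scale. Their summed level was 39126 to 43032 normalized counts in Kir2.1-OE and 40784 to 46437 in control, which overlapped. Of 6 outer hair cell markers 1 was called higher, Slc26a5, the motor protein prestin, at 0.62, and 0 lower. Chrna10 went the other way at -0.45 (adjusted p = 0.00606 in edgeR), under 1.5-fold, with groups that did not overlap. Of 5 inner hair cell markers 2 were called higher, Otof (0.76) and Slc7a14 (1.36), and 0 lower. Fgf8 had -0.32 (adjusted p = 0.173 in edgeR), with every Kir2.1-OE library below every control. With the offsets Loxhd1 (0.79), Calb1 (-0.60), Slc26a5 (0.76) and Slc7a14 (0.76) were still called, whereas Myo7a (0.39), Grxcr1 (-0.30) and Otof (-0.023) were not. Strc, an outer hair cell marker not called in the first fit, was called lower with them, at -0.65 (adjusted p = 0.00765 in edgeR). Summed inner hair cell markers did not overlap between the groups, as given above, but the sum was led by Atp2a3, whose own groups overlapped. Gfi1, Lhx3, Rfx1 and Rfx3 overlap annotated genes on the opposite strand, and no strand setting is stated, so reads from shared sequence cannot be assigned. Such sequence was a small part: 1.65% of the 31-base words of Gfi1, 1.00% of Rfx1 and 1.13% of Rfx3 occurred in any other gene. Rfx2, which overlaps no gene, had 1.99%. Lhx3 had the largest overlap, with 5.25% of its 31-base words found in other genes, whereas Atoh1 and Barhl1 had 0%. Rfx1 and Rfx2 had 12 such words in common.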

How the data were processed

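RNA of 6 pools of cochlear sensory epithelium was enriched for poly(A) and sequenced. Reads were mapped to mm10 with the nf-core RNA pipeline and gene counts were estimated with Salmon; versions, annotation and strand setting are not given in the sources used here. The authors deposited expected counts for 24411 symbols per library (6.95% of values not whole), which were rounded. Groups came from the sample titles. One control column is headed with another replicate number than its title, and the title was followed.

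The test was the quasi-likelihood test of edgeR 4.0.16 under R 4.3.3 (filterByExpr, TMM scaling, genotype as only term, Benjamini-Hochberg adjustment over 15303 genes) and genes were called at adjusted p under 0.05 and fold above 1.5. Alternatives were other scalings, filters, DESeq2 1.42.0, a glmTreat threshold, a replicate block, length and GC offsets (loess, span 0.4) and leaving out each library. The form of the offsets, a robust local linear trend, was picked after 4 forms had been run. Scripts were tested on simulated data. Lengths are those of GENCODE transcripts (23376 symbols matched, 670 more through older symbols, 365 unmatched), and promoters are from RefSeq. All 10 members are named, with the genes of the lists that were called or that serve as partners, and for Pou4f3, Tbx2 and Rfx3 the 3 most similar profiles among genes with a mean of at least 50 normalized counts. The members and lists were chosen with earlier results of these data known. Replicates are separate pools of mice. Libraries of a group differed by more than counting noise. Poisson intervals have a level of 95%. The values of 1 listed gene that was not called are not reported here.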

Additional observations from a re-analysis of the deposited data

How the results depend on the processing

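Each result was recomputed under 19 alternatives, 3 of them (other forms of the length and GC offsets) added after seeing the data. Of 190 recomputed log2 fold changes of the factors 136 kept their direction and their side of the threshold, 21 lost the call, 3 gained it and 30 changed sign. Rfx2 was not called with upper quartile scaling, glmTreat, any offsets or without Kir2.1-OE replicate 1 (members called higher then 0). Atoh1 was not called without a filter (adjusted p = 0.0592), with the DESeq2 Wald test (0.0751), glmTreat (0.443) or any offsets, or without 4 of the 6 libraries (members called lower then 0, edgeR except where named). Leaving out 1 library gave 0 to 1 members called higher and 0 to 1 called lower. With no fold threshold 4 members were called higher.

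Over all genes, upper quartile scaling called 1378 lower and moved the share of calls that were higher from 75.3% to 57.9%, no fold threshold gave 4184 higher and 3590 lower (53.8% higher), and glmTreat gave 832 and 57 (93.6% higher). The offsets gave 1051 and 453, with a replicate block 773 and 377, with a quadratic trend 1229 and 376, and by least squares 904 (linear; 60.0% higher) and 985 (quadratic) higher. The median log2 fold change of the members stayed within the spread between libraries, from -0.15 to 0.19.

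Signs turned with upper quartile scaling for Pou4f3 (-0.0412), Barhl1 (-0.0624) and Lhx3 (-0.0106). With the offsets they turned for Tbx2 (-0.12), Barhl1 (-0.35), Rfx1 (-0.0594) and Rfx3 (-0.0523), with the offsets and replicate block to -0.12, -0.33, -0.0590 and -0.0476, with the quadratic trend for Tbx2 (-0.0738), Barhl1 (-0.31) and Rfx1 (-0.0236), with the linear least squares trend for Tbx2 (-0.19, edgeR adjusted p = 0.0415), Barhl1 (-0.40), Lhx3 (-0.0173), Rfx1 (-0.12) and Rfx3 (-0.0812), and with the quadratic least squares trend for Tbx2 (-0.17), Barhl1 (-0.38) and Rfx1 (-0.0924). Leaving out 1 library gave -0.0849 to 0.11 for Pou4f3, -0.0813 to 0.23 for Barhl1 and -0.0913 to 0.27 for Lhx3. Beyond the constructions named, the cause was not tested.

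Deviations of same-numbered libraries from their group means correlated at -0.0984, -0.222 and -0.209 across genes, and those of differently numbered ones at 0.00941 to 0.187. With 3 libraries centred in each group, these values cannot decide whether the replicate numbers pair the samples. With the replicate block 2220 genes were called higher and 718 lower, Rfx2 was still called (members called higher 1), and Atoh1 was not (adjusted p = 0.0999 in edgeR; members called lower 0). Atoh1 rested on 11 to 43 reads per library, and each group had 3 pools.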
